A study of Homo sapiens with 4 samples.

Results

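The genes described here are 36 genes of glycolysis and of the response to low oxygen: 17 glycolytic enzymes, 3 glucose and lactate transporters, 4 regulators of glycolytic flux, 4 genes of oxygen sensing and 8 other targets of the hypoxia-inducible factors. The genes were chosen with earlier results of these data known, so shares of the members beside those of all probes are descriptions only. Their probes were taken by symbol alone, as every probe on the array whose deposited symbol named a member (PKM2 is the older symbol of PKM). Each probe was kept apart. All 36 genes were on the array, with 62 of its 47321 probes. Total RNA came from A549, a lung adenocarcinoma line, and H1299, a lung carcinoma line grown from a lymph node metastasis. There were 4 groups of 1 Illumina bead array each: A549 given siRNA against TET1, parent A549 given vehicle, H1299 given siRNA against TET1, and parent H1299 given vehicle. TET1 is an enzyme that oxidises 5-methylcytosine in DNA. The labels give no siRNA sequence, dose or time and no oxygen level, and name vehicle, not a control siRNA, for the parent cells. No group had a replicate, so no change within a line has a measured error, and a lower signal in these bulk samples can mean fewer transcripts per cell or fewer cells that express the gene.

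Glycolysis splits glucose into pyruvate in the cytosol, and lactate dehydrogenase turns pyruvate into lactate. Cancer cells often run it at a high rate in the presence of oxygen. When oxygen falls, the prolyl hydroxylases of the EGLN family stop marking the alpha subunits HIF1A and EPAS1 for destruction. The stabilised factors then bind DNA with their partner ARNT and switch on glycolytic enzymes, glucose transporters and genes of vessel growth, pH control and collagen modification. HIF1A and EPAS1 are controlled mainly at the protein level, which an array does not measure.

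The hypoxia-inducible factors bind the core motif ACGTG or GCGTG, which reads CACGT or CACGC on the other strand. The 250 bases before the transcription start are printed for 5 members, with every match on either strand in capitals, 5′ to 3′ along the gene's strand. They show the promoters of the members that differed most between the lines (CA12 and EPAS1), of the weakest member on these arrays (CA9), and of a member with opposing and a member with level signals (PGK1 and BNIP3). Sequences and starts are RefSeq's, on GRCh38.p14.
CA12: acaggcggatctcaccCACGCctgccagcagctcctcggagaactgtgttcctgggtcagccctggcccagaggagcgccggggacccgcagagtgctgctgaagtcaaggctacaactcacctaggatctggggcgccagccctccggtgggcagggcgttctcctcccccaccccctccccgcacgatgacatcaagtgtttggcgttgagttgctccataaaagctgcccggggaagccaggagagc
EPAS1: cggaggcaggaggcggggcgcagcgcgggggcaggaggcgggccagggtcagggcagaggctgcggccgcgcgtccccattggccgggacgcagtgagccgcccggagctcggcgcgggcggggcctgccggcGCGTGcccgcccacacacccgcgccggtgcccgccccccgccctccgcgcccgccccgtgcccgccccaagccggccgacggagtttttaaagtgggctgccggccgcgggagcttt
CA9: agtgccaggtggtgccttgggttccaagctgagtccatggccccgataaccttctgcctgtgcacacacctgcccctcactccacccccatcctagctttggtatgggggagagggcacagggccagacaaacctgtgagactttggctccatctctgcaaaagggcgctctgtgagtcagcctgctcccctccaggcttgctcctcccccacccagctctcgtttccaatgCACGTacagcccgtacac
PGK1: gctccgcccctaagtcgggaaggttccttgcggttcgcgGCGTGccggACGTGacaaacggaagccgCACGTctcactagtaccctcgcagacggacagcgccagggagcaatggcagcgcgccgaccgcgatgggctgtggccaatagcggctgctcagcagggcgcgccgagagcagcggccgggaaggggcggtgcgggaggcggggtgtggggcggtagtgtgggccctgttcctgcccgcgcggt
BNIP3: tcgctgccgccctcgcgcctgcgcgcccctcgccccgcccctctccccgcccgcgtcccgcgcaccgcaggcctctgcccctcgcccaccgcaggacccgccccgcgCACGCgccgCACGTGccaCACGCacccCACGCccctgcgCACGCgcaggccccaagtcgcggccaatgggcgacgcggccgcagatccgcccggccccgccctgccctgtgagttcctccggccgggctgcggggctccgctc
The CA12 window lies at chr15:63381847-63382096 on the minus strand and holds 1 match, 234 bases before the start. That of EPAS1 lies at chr2:46297157-46297406 on the plus strand, with 1 match 117 bases before the start. The CA9 window is at chr9:35673678-35673927 on the plus strand, and its 1 match stands 18 bases before the start. PGK1 has its window at chrX:78103998-78104247 on the plus strand and 3 matches. BNIP3, at chr10:131981924-131982173 on the minus strand, has 6 matches, of which 2 overlap in the palindrome CACGTG. Of the 36 members 33 were in the RefSeq promoter table, and VEGFA, NDRG1 and SLC2A3 were not. A match was present in 35 of the members' 60 windows (58.3%), against 15172 of all 35116 windows in the table (43.2%). The median count of CpG dinucleotides, the bases that TET1 acts on when methylated, was 22 per member window and 11 per window over the whole table. These are descriptions of sequence, and no methylation or binding was measured here. Both core motifs contain a CpG, and whether the members' share of matches goes beyond their higher CpG count was not tested.

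A probe was called detected on an array at a detection p under 0.01. The arrays differed in how much they detected: 36.2% of all probes on the A549 knockdown array and 29.5% on A549 vehicle, and 30.5% on the H1299 knockdown array and 35.7% on H1299 vehicle. The A549 vehicle and H1299 knockdown arrays therefore stood apart from the other 2, and any change within a line compares an array of one kind with an array of the other. Over all probes detected in both lines, 12234 of 15387 (79.5%) had changes of opposite sign in A549 and H1299. The targeted gene was near background: TET1 probe ILMN_3247163 had a raw intensity of 164.5 in the A549 knockdown against 222.1 in A549 vehicle, and 186.8 in the H1299 knockdown against 255.9 in H1299 vehicle, detected in the vehicle arrays alone. The second TET1 probe, ILMN_1741056, was detected in H1299 vehicle only. Of 6 epithelial markers, 5 were detected on both A549 arrays and 1, KRT8, on both H1299 arrays. Of 5 markers of lung lineage only FOXA2 was detected, in A549 alone, and NKX2-1, SFTPB, SFTPC and SCGB1A1 were below background on all 4 arrays. PTPRC, CD3E, PECAM1, VWF, COL1A2 and DCN, which mark leukocytes, endothelium and fibroblasts, were below background on all arrays, while the macrophage marker CD68 was detected on all 4 and COL1A1 in A549. Some markers differed between knockdown and vehicle in 1 line. The detected CD68 probes differed by 1.75 and 1.21 in H1299 but by -0.28 and -0.32 in A549, and CD68 probe ILMN_2267914 was undetected on all arrays. COL1A1 differed by -2.16 and the epithelial KRT19 by 2.53 in A549, and both were undetected in H1299. Their part in the results below was not tested.

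Of the 62 member probes, 52 were detected on at least 1 array, 37 on all 4 arrays and 10 on none. Every one of the 36 genes had a detected probe. The undetected probes were 3 of HK1, 2 of ALDOA, 2 of VEGFA and 1 each of PFKL, P4HA1 and P4HA2, each beside a detected probe of the same gene. Levels below are normalized log2 signals, and a change is knockdown minus vehicle on that scale. A probe counts as higher or lower in a knockdown where its normalized values were 2-fold or more apart and either array of the line detected it. Folds against an array that did not detect the probe are lower limits on this normalized scale only, marked by the words at least. The normalized values that the authors deposited can give smaller changes, such as 0.24 for PFKL ILMN_1713037 in A549. Such an array is taken at the smallest normalized signal among its own detected probes (5.53 for the A549 knockdown, 6.14 for A549 vehicle, 6.03 for the H1299 knockdown and 5.56 for H1299 vehicle), or the probe's own value if higher.

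In A549, 16 of 50 detected member probes were higher in the knockdown and 4 were lower, while over all detected probes 13.6% were higher and 8.34% lower. In H1299, 6 of 47 were higher and 19 lower, against 16.7% and 19.3% of all detected probes. The median change of the member probes was 0.31 in A549 and -0.28 in H1299, and that of all detected probes was -0.07 and 0.18. With arrays centred on their medians the medians of all probes were 0.42 and 0.24, and the members split into 18 higher and 2 lower in A549 and 8 higher and 14 lower in H1299. With arrays centred on the probes detected on all 4 arrays the member median in A549 was -0.01, against -0.15 for all probes. Relative to all probes, the member medians thus stood above 0 in A549 and below 0 in H1299 under all 3 scalings. The 2 centred scalings differ only by a constant per array. They therefore had to give the same relative medians, 0.14 in A549 and -0.39 in H1299, and do not count as separate results. With only the brightest probe of each gene the split was closer, at 7 higher and 4 lower in A549 and 5 higher and 7 lower in H1299.

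**Figure D1:**
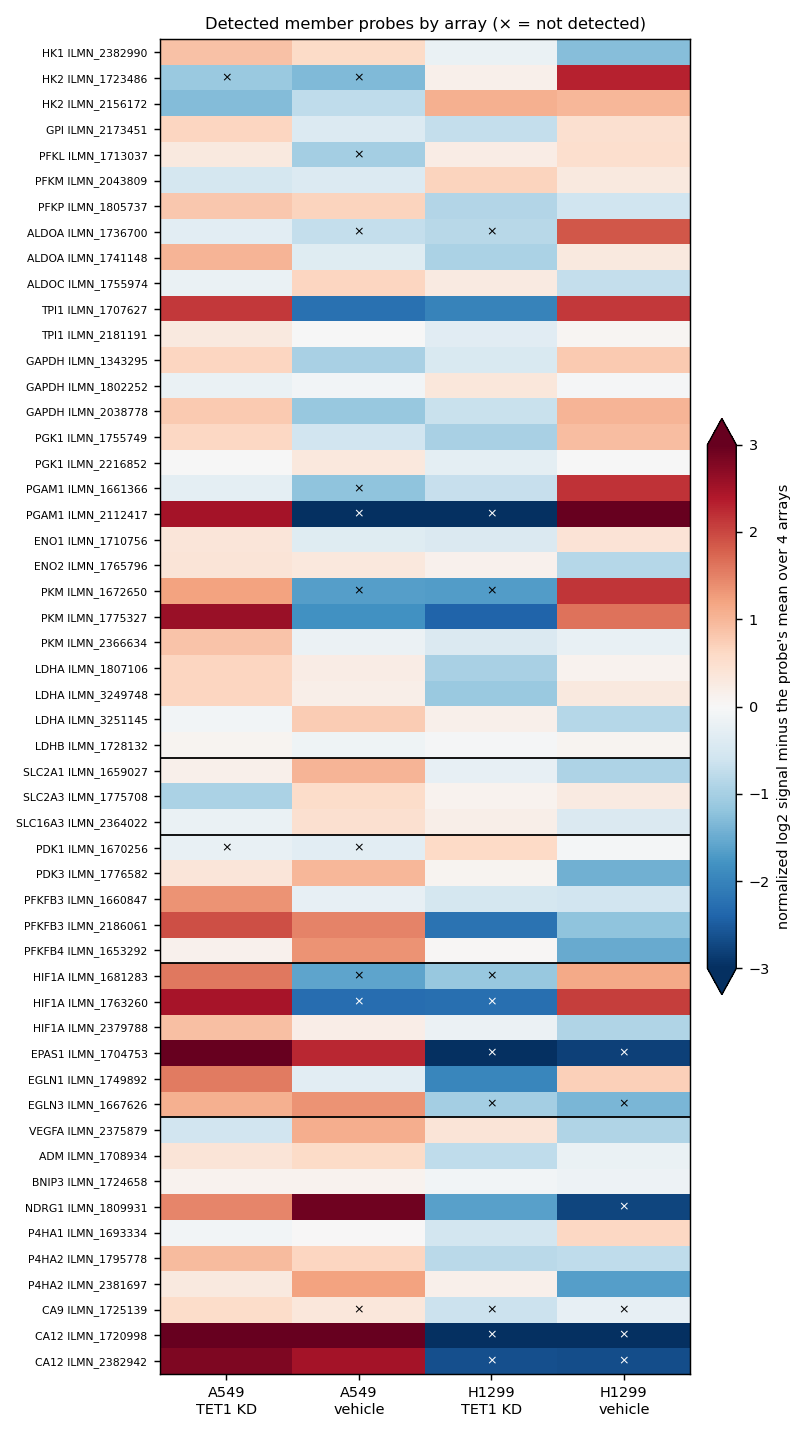
Heat map of the 52 member probes detected on at least 1 array (rows, in blocks by role) on the 4 arrays (columns); colour gives a probe's normalized log2 signal minus its own mean over the arrays, cut at 3 either way, and a cross marks an array that did not detect it. The rows of TPI1 ILMN_1707627, PGAM1 ILMN_2112417, PKM ILMN_1775327 and HIF1A ILMN_1763260 are blue on A549 vehicle and the H1299 knockdown and red on the other arrays, and those of EPAS1 and CA12 are red on both A549 arrays.

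Of 45 member probes detected in both lines, 12 probes of 9 genes (GPI, ALDOA, TPI1, GAPDH, PGK1, PGAM1, PKM, HIF1A and EGLN1) were higher in the A549 knockdown and lower in the H1299 knockdown, where 11.1% of all probes were. Another 3, of VEGFA, NDRG1 and PFKFB4, were lower in the A549 knockdown and higher in the H1299 knockdown, a class that held 4.04% of all probes. None of these 3 stayed in that class on the deposited values or without background correction. On the deposited values the A549 and H1299 changes were -0.52 and 0.30 for VEGFA, -1.24 and 0.13 for NDRG1, and -0.82 and 0.58 for PFKFB4. No member probe differed the same way in both knockdowns, as 0.188% of all probes did. A further 17 probes stayed within 2-fold in each line. The 12 probes read low on the same arrays, A549 vehicle and the H1299 knockdown, that detected fewer probes in all. The part of array quality in these changes was not tested, and on these arrays it cannot be told apart from an effect of the knockdown that differs between the lines. Whether arrays were exchanged within a line was not tested either, and both TET1 probes were too near background to decide it.

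**Figure D2:**
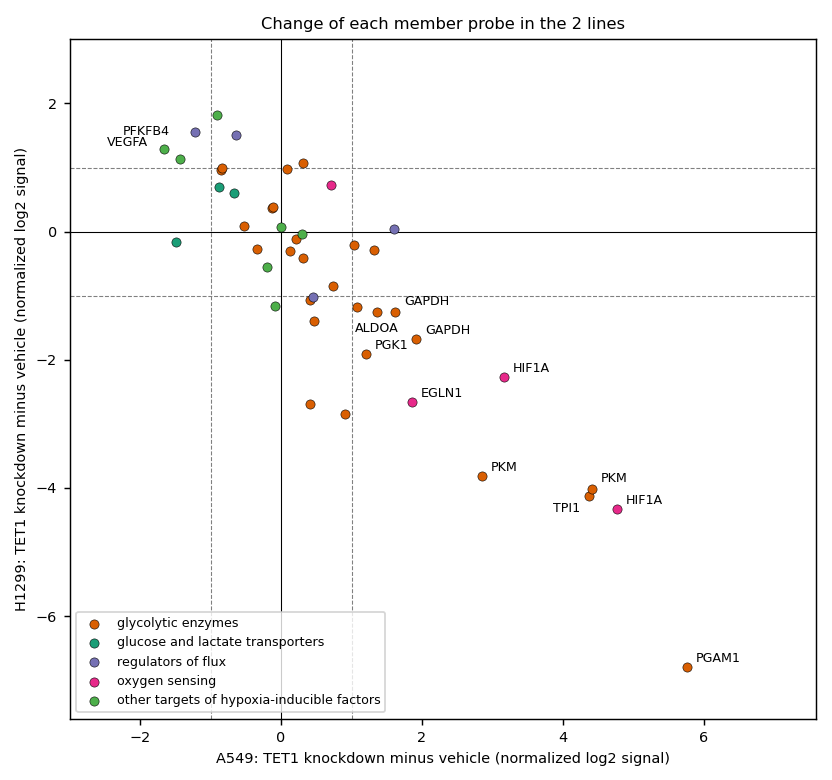
Scatter of the change (TET1 knockdown minus vehicle, normalized log2 signal) in A549 on the horizontal axis and in H1299 on the vertical axis for the 45 member probes detected in both lines, coloured by role, with dashed lines at 2-fold. The 12 probes at lower right include PGAM1 at 5.76 and -6.80, and the upper right corner beyond 2-fold in each line is empty.

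The glycolytic enzymes held most of the member probes past 2-fold in both lines, but also most of those detected. They had 27 of the 50 member probes detected in A549 and 28 of the 47 in H1299. In A549, 11 of their 27 detected probes were higher in the knockdown and 0 lower, against 13.6% and 8.34% of all probes. The enzymes' median change was 0.47. In H1299, 1 of 28 was higher and 14 were lower, against 16.7% and 19.3% of all probes. The enzymes' median there was -0.96. Centred on medians, the counts were 12 and 0 in A549 and 1 and 10 in H1299. Centred on the probes detected everywhere, they were 8 and 0 in A549 and 1 and 12 in H1299.

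Hexokinases trap glucose in the cell as glucose 6-phosphate. HK1 probe ILMN_2382990 had a normalized log2 signal of 12.17 in the A549 knockdown and 11.87 in A549 vehicle, and of 11.09 in the H1299 knockdown and 10.01 in H1299 vehicle. It was 2.11-fold higher in the H1299 knockdown, the only glycolytic enzyme probe that was. HK2, the form induced by growth signals and low oxygen, was represented by a pair of probes that disagreed. Its probe ILMN_1723486 was undetected in A549 and stood at 6.34 in the H1299 knockdown against 8.50 in H1299 vehicle, 4.45-fold lower. Probe ILMN_2156172 of the same gene read 9.12 in the H1299 knockdown and 9.04 in H1299 vehicle, a change of 0.08.

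GPI, which isomerises glucose 6-phosphate to fructose 6-phosphate, read 12.29 in the A549 knockdown and 11.21 in A549 vehicle, and 10.93 in the H1299 knockdown and 12.11 in H1299 vehicle. It was 2.11-fold higher in the A549 knockdown and 2.27-fold lower in the H1299 knockdown, so that A549 vehicle and the H1299 knockdown were the low arrays. Phosphofructokinase, the committed step, has liver, muscle and platelet subunits. The liver subunit PFKL read 7.44 in the A549 knockdown and was undetected in A549 vehicle, at least 2.47-fold higher, and read 7.36 in the H1299 knockdown and 7.64 in H1299 vehicle. For the muscle subunit PFKM the A549 difference was -0.13 and the H1299 difference 0.37, and the platelet subunit PFKP gave 0.13 and -0.29, neither past 2-fold.

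Aldolase splits fructose 1,6-bisphosphate. Its ubiquitous form ALDOA, probe ILMN_1741148, read 12.93 in the A549 knockdown and 11.57 in A549 vehicle, and 10.97 in the H1299 knockdown and 12.23 in H1299 vehicle. That is 2.57-fold higher in the A549 knockdown and 2.39-fold lower in the H1299 knockdown. A dimmer ALDOA probe, ILMN_1736700, was detected only on the 2 arrays where the first was high, with 6.21 in the A549 knockdown and 8.37 in H1299 vehicle, and the H1299 knockdown was lower by at least 5.07-fold. ALDOC, the brain form, gave -0.86 in A549 and 0.97 in H1299, short of 2-fold. Its raw intensities were 257.9 in the A549 knockdown and 249.0 in A549 vehicle, so that the sign of its A549 change came from the normalization.

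TPI1, which interconverts the triose phosphates, showed how far probes of a gene could part. Probe ILMN_1707627 read 12.65 in the A549 knockdown and 8.28 in A549 vehicle, and 8.53 in the H1299 knockdown and 12.66 in H1299 vehicle. Its raw intensities were 6971 in the A549 knockdown and 339.6 in A549 vehicle, and 489.0 in the H1299 knockdown and 6284 in H1299 vehicle. It was thus 20.7-fold higher in the A549 knockdown and 17.4-fold lower in the H1299 knockdown. The other TPI1 probe, ILMN_2181191, read 12.82 in the A549 knockdown and 12.50 in A549 vehicle, and 12.17 in the H1299 knockdown and 12.58 in H1299 vehicle, never 2-fold apart within a line.

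GAPDH, the enzyme that makes 1,3-bisphosphoglycerate and a common reference gene, had 3 probes detected everywhere. Probe ILMN_2038778 read 14.44 in the A549 knockdown and 12.52 in A549 vehicle, and 13.00 in the H1299 knockdown and 14.68 in H1299 vehicle. Probe ILMN_1343295 ran the same way, with 13.92 in the A549 knockdown and 12.30 in A549 vehicle, and 12.81 in the H1299 knockdown and 14.06 in H1299 vehicle. The remaining one, ILMN_1802252, was flat within 2-fold: 13.53 in the A549 knockdown and 13.64 in A549 vehicle, and 14.07 in the H1299 knockdown and 13.68 in H1299 vehicle. GAPDH as a reference would therefore give different answers by probe. PGK1, the first ATP-making step, parted in the same manner. Its probe ILMN_1755749 read 11.92 in the A549 knockdown and 10.72 in A549 vehicle, and 10.32 in the H1299 knockdown and 12.24 in H1299 vehicle, 2.30-fold higher in the A549 knockdown and 3.77-fold lower in the H1299 knockdown. PGK1 probe ILMN_2216852 gave -0.34 in A549 and -0.27 in H1299.

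PGAM1, the phosphoglycerate mutase of most tissues, had the largest swing of all members. Probe ILMN_2112417 read 10.69 in the A549 knockdown and 4.92 (undetected) in A549 vehicle, and 5.18 (undetected) in the H1299 knockdown and 11.98 in H1299 vehicle. The raw intensities behind these were 1968 in the A549 knockdown and 141.2 in A549 vehicle, and 162.3 in the H1299 knockdown and 3966 in H1299 vehicle. On the scale used here the A549 knockdown was higher by at least 23.4-fold, and the H1299 knockdown was lower by at least 61.8-fold. On the deposited values the changes were smaller, at 2.49 in A549 and -3.70 in H1299. PGAM1 probe ILMN_1661366 was 7.23-fold lower in the H1299 knockdown, while the A549 knockdown exceeded undetected vehicle by at least 1.29-fold. PGAM1 has close copies in the genome, PGAM4 among them, and the deposited table does not say which of them a probe reads.

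ENO1, the main enolase, read 14.95 in the A549 knockdown and 14.22 in A549 vehicle, and 14.14 in the H1299 knockdown and 14.99 in H1299 vehicle. The low arrays were again A549 vehicle and the H1299 knockdown, but neither change reached 2-fold. ENO2, the neuronal enolase, gave 0.09 in A549 and 0.98 in H1299. Pyruvate kinase M, which makes pyruvate and the second ATP, had 3 detected probes. PKM probe ILMN_1775327 read 12.44 in the A549 knockdown and 8.04 in A549 vehicle, and 7.46 in the H1299 knockdown and 11.49 in H1299 vehicle, 21.2-fold higher in the A549 knockdown and 16.3-fold lower in the H1299 knockdown. PKM probe ILMN_1672650 read 7.46 in the A549 knockdown and 8.41 in H1299 vehicle and was undetected on the other arrays. The remaining one, ILMN_2366634, read 13.89 in the A549 knockdown and 12.86 in A549 vehicle, and 12.60 in the H1299 knockdown and 12.81 in H1299 vehicle, past 2-fold only in A549 (2.04-fold). The table does not say which of the M1 and M2 splice forms each probe reads.

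The lactate dehydrogenase subunits closed the pathway. LDHA, the subunit that favours lactate, had a bright pair of probes: ILMN_1807106 read 15.08 in the A549 knockdown and 14.67 in A549 vehicle, and 13.48 in the H1299 knockdown and 14.55 in H1299 vehicle, 2.09-fold lower in the H1299 knockdown. ILMN_3249748 of LDHA was 2.64-fold lower in the H1299 knockdown, and their A549 differences were 0.41 and 0.47. The dim LDHA probe ILMN_3251145 gave -0.83 in A549 and 0.997 in H1299, opposite in sign to the bright pair. LDHB, the subunit that favours pyruvate, read 14.14 in the A549 knockdown and 13.93 in A549 vehicle, and 14.03 in the H1299 knockdown and 14.14 in H1299 vehicle, nearly level on all arrays.

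**Figure D3:**
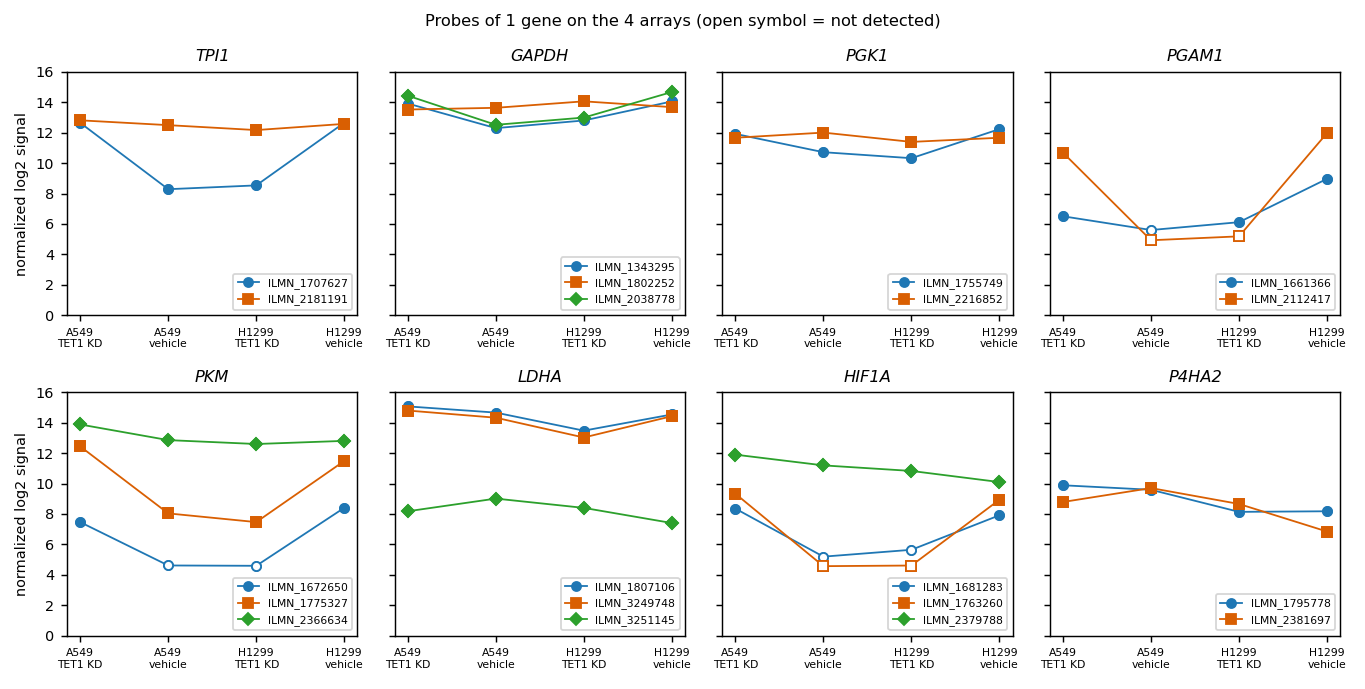
Normalized log2 signal (vertical axes) of the detected probes of 8 members on the 4 arrays (horizontal axes), a line per probe, with open symbols where the array did not detect it. In TPI1, PGAM1, PKM and HIF1A at least 1 probe dips on A549 vehicle and the H1299 knockdown, while other probes of TPI1, PKM and HIF1A stay above 10 on every array.

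Probes of a gene disagreed throughout. Of the 10 members with at least 2 probes detected in both lines, 9 had probes whose A549 changes lay at least 2-fold apart and 10 had such probes in H1299. The shares over all 2508 genes with at least 2 such probes were 36.7% in A549 and 54.0% in H1299. The median distance between the highest and lowest change of a member's probes was 1.79 in A549 and 2.23 in H1299, against 0.71 and 1.10 over all these genes. Changes of a gene can thus be stated only for a probe, and where the probes lie in their transcripts was not analysed here.

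The transporters were read by 1 probe each, detected on all arrays, and had lower values in the A549 knockdown. SLC2A3, the high-affinity glucose transporter GLUT3, read 9.39 in the A549 knockdown and 10.88 in A549 vehicle, and 10.44 in the H1299 knockdown and 10.60 in H1299 vehicle. It was 2.81-fold lower in the A549 knockdown and the only transporter past 2-fold. SLC2A1, the basal glucose transporter GLUT1, read 11.25 in the A549 knockdown and 12.13 in A549 vehicle, and 10.86 in the H1299 knockdown and 10.16 in H1299 vehicle. The lactate exporter SLC16A3 (MCT4) read 11.66 in the A549 knockdown and 12.32 in A549 vehicle, and 12.02 in the H1299 knockdown and 11.41 in H1299 vehicle. All 3 had lower values in the A549 knockdown under each of the 3 scalings, with 2 past 2-fold when arrays were centred on the probes detected everywhere. In H1299, 2 of them passed 2-fold, both higher in the knockdown, when arrays were centred on their medians.

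The regulators of flux decide how much sugar enters glycolysis and how much pyruvate enters mitochondria. In A549, 1 of their 4 detected probes was higher in the knockdown and 1 lower, with a median of -0.10 that became 0.38 when arrays were centred on their medians. In H1299, 2 of 5 were higher and 1 lower, with a median of 0.66. Over all detected probes 13.6% were higher and 8.34% lower in A549, and 16.7% and 19.3% in H1299. PFKFB3 and PFKFB4 make and break fructose 2,6-bisphosphate, the activator of phosphofructokinase. PFKFB4 read 8.53 in the A549 knockdown and 9.75 in A549 vehicle, and 8.44 in the H1299 knockdown and 6.88 in H1299 vehicle, 2.32-fold lower in the A549 knockdown and 2.95-fold higher in the H1299 knockdown. PFKFB3 probe ILMN_1660847 read 8.73 in the A549 knockdown and 7.13 in A549 vehicle, and 6.85 in the H1299 knockdown and 6.81 in H1299 vehicle, 3.04-fold higher in the A549 knockdown. The brighter PFKFB3 probe, ILMN_2186061, was 1.37-fold higher there and 2.02-fold lower in the H1299 knockdown. Pyruvate dehydrogenase kinases hold pyruvate out of the mitochondrion. PDK3 read 8.03 in the A549 knockdown and 8.67 in A549 vehicle, and 7.75 in the H1299 knockdown and 6.24 in H1299 vehicle, 2.85-fold higher in the H1299 knockdown. PDK1, a classical target of HIF1A, was undetected in A549 and differed by 0.66 in H1299.

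Of the 6 oxygen sensing probes detected in A549, 4 were higher in the knockdown and 0 lower, and of 4 detected in H1299, 0 were higher and 3 lower. Over all detected probes 13.6% were higher and 8.34% lower in A549, and 16.7% and 19.3% in H1299. HIF1A itself had 3 detected probes, and they did not share a pattern. Probe ILMN_1763260 read 9.33 in the A549 knockdown and 4.57 (undetected) in A549 vehicle, and 4.61 (undetected) in the H1299 knockdown and 8.94 in H1299 vehicle. The A549 knockdown was higher by at least 9.13-fold and the H1299 knockdown lower by at least 7.50-fold. On the deposited values the changes of this probe were 1.48 in A549 and -1.21 in H1299. Probe ILMN_1681283 read 8.35 in the A549 knockdown and 5.19 (undetected) in A549 vehicle, and 5.64 (undetected) in the H1299 knockdown and 7.91 in H1299 vehicle. The brightest probe, ILMN_2379788, read 11.90 in the A549 knockdown and 11.20 in A549 vehicle, and 10.83 in the H1299 knockdown and 10.10 in H1299 vehicle, a change of 0.71 in A549 and 0.73 in H1299, short of 2-fold. On this probe alone HIF1A had values above vehicle in both knockdowns, and on the others the lines opposed each other.

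EPAS1, which encodes HIF-2 alpha, was detected in A549 only, at 12.12 in the knockdown and 10.47 in vehicle, 3.12-fold higher. EGLN1, the main oxygen sensor among the prolyl hydroxylases, read 9.54 in the A549 knockdown and 7.68 in A549 vehicle, and 6.04 in the H1299 knockdown and 8.70 in H1299 vehicle. It was 3.63-fold higher in the A549 knockdown and 6.32-fold lower in the H1299 knockdown, low on the same arrays as the enzymes. EGLN3, an oxygen sensor that low oxygen itself induces, was detected in A549 only and differed there by -0.28, or by 0.52 with arrays centred on their medians.

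Other targets of the hypoxia-inducible factors passed 2-fold more often in H1299 than in A549, as all detected probes did, which was not tested. Over all detected probes 13.6% were higher and 8.34% lower in A549, and 16.7% and 19.3% in H1299. On the deposited values, 1 of 10 probes of these targets passed 2-fold in A549 and 0 of 7 in H1299. None of their 10 probes detected in A549 was 2-fold higher in the knockdown, and 2 were lower. Their A549 median was -0.14, and 0.14 with arrays centred on their medians. In H1299, 3 of 7 were higher and 1 was lower. VEGFA, the main growth factor of vessels, was read by probe ILMN_2375879 at 6.58 in the A549 knockdown and 8.23 in A549 vehicle, and at 7.53 in the H1299 knockdown and 6.25 in H1299 vehicle. That is 3.15-fold lower in the A549 knockdown and 2.43-fold higher in the H1299 knockdown, the reverse of GPI or EGLN1. NDRG1, a stress and differentiation gene strongly induced by low oxygen, read 9.62 in the A549 knockdown and 11.06 in A549 vehicle, 2.70-fold lower. In H1299 it read 6.52 in the knockdown and was undetected in vehicle, at least 1.94-fold higher.

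Collagen prolyl 4-hydroxylases shape the matrix that cells secrete under low oxygen. P4HA1 read 9.01 in the A549 knockdown and 9.09 in A549 vehicle, and 8.54 in the H1299 knockdown and 9.70 in H1299 vehicle, 2.23-fold lower in the H1299 knockdown. P4HA2 probe ILMN_2381697 read 8.79 in the A549 knockdown and 9.70 in A549 vehicle, and 8.66 in the H1299 knockdown and 6.84 in H1299 vehicle, 3.52-fold higher in the H1299 knockdown. Another P4HA2 probe, ILMN_1795778, gave 0.30 in A549 and -0.04 in H1299. BNIP3, a mitophagy receptor whose promoter window held 6 motif matches, read 11.99 on both A549 arrays, 11.81 in the H1299 knockdown and 11.73 in H1299 vehicle. The vasodilator peptide ADM gave -0.20 in A549 and -0.56 in H1299. CA9, a carbonic anhydrase used as a marker of tumour hypoxia, was detected in the A549 knockdown alone, at 5.82, too near background for a fold.

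Over both lines no member passed the test of knockdown against vehicle. In limma's fit of line and knockdown to 17002 probes, 0 of 51 fitted member probes passed, and 0 had an unadjusted p under 0.05, while 0.00588% of all probes passed. The smallest unadjusted p was 0.279, for SLC2A3 (limma, mean change -0.82 ± 0.76, SE; lower in both lines). HIF1A probe ILMN_2379788, at 0.72 ± 0.68, and HK1 probe ILMN_2382990, at 0.69 ± 0.66, had values above vehicle in both lines. Opposing changes average out in this fit, and the SE follows the trend over all probes, not the spread of a single probe. PGAM1 probe ILMN_2112417, for example, had a mean change of -0.52 ± 1.07 (SE).

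The lines themselves differed in 4 members. For H1299 against A549, averaged over both treatments in the same fit, 5 of 51 member probes passed and all 5 were lower in H1299, where 2.55% of all probes were lower and 1.28% higher. CA12, a membrane carbonic anhydrase that helps set pH outside the cell, was the most different. Its probe ILMN_1720998 was undetected in H1299, at 5.28 in the knockdown and 5.09 in vehicle, against 12.23 in the A549 knockdown and 12.79 in A549 vehicle. The difference was -7.33 ± 0.98 (SE; limma adjusted p = 2.28e-11), at least 105-fold. Both CA12 probes entered the fit only through the A549 arrays that detected them, so the filter was not independent of this difference. In a fit of all 47321 probes with no filter on detection, the adjusted p was 1.84e-08 (limma). Only 19939 of those probes were detected on any array, and the SE of that fit follows the trend over all of them. Its p-values are therefore no independent support for a difference. The second CA12 probe, ILMN_2382942, differed by -5.28 ± 1.13 (adjusted p = 0.000281, limma), at least 17.8-fold, and its adjusted p with no filter was 4.13e-05.

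EPAS1 was likewise undetected on both H1299 arrays, at 4.83 in the knockdown and 5.40 in vehicle, against 12.12 in the A549 knockdown and 10.47 in A549 vehicle. It differed by -6.19 ± 1.07 (SE; limma adjusted p = 1.38e-06), at least 45.2-fold. EPAS1 too entered the fit through A549 alone, and with no filter its adjusted p was 6.75e-06 (limma), which has the limit given for CA12. NDRG1 differed by -4.38 ± 1.08 (limma adjusted p = 0.00287; 0.1001 without the A549 vehicle array, in a fit that also had no term for knockdown), with 6.52 in the H1299 knockdown and 9.62 in the A549 knockdown, and 5.39 (undetected) in H1299 vehicle and 11.06 in A549 vehicle. PFKFB3 probe ILMN_2186061 read 8.82 in the H1299 knockdown and 12.98 in the A549 knockdown, and 9.84 in H1299 vehicle and 12.53 in A549 vehicle. It was 10.8-fold lower in H1299 (-3.43 ± 0.68, SE; limma adjusted p = 5.13e-05), and its other probe differed by -1.10 ± 1.13, which did not pass. For each of these 5 probes, both H1299 arrays lay below both A549 arrays. The calls were lost when arrays were centred on their medians, where the adjusted p-values of the 5 reached 0.0573 to 0.181 and that fit estimated 4.03 prior degrees of freedom in place of an infinite number. The differences themselves stayed at -7.33 and -5.22 for CA12, -6.12 for EPAS1, -4.48 for NDRG1 and -3.46 for PFKFB3. On the deposited values they were smaller, at -4.23 and -1.92 for CA12, -3.07 for EPAS1, -2.09 for NDRG1 and -3.13 for PFKFB3. There NDRG1 and the second CA12 probe did not pass (adjusted p = 0.113 and 0.110, limma). The folds between the lines given above thus hold only for the normalization used here.

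No probe of the glycolytic enzymes passed between the lines, and their averages hid opposing differences. Of 28 fitted probes, 17 were 2-fold or more apart between the knockdown arrays of the lines and 17 between the vehicle arrays, and 18 had opposite signs in the 2 treatments. TPI1 probe ILMN_1707627 differed between H1299 and A549 by -4.12 in the knockdowns and 4.37 in vehicle, and averaged 0.13. LDHB, at -0.11 in the knockdowns and 0.21 in vehicle, was close in both. HK2 had higher values in H1299 on both probes, by 2.45 ± 0.99 and 2.07 ± 1.09 (SE; adjusted p = 0.197 and 0.543 in limma), which did not pass. In the fits that left out an array, which had no term for knockdown, probes of HK2, HK1, PKM, PFKP and LDHA passed in at least 1 fit. HK2 ILMN_1723486 was among them, at 3.52 without the H1299 knockdown array. This HK2 probe was undetected in A549 and entered the fits only through H1299, so the filter was not independent of its difference. With no filter on detection LDHA ILMN_1807106 passed at -0.86 (limma adjusted p = 0.0299). The oxygen sensor EGLN3 was undetected in H1299 and detected in A549, a difference of -2.40 ± 0.999 (adjusted p = 0.228 in limma). EGLN3 passed, at -2.26, in the fit without the A549 vehicle array, and it entered the fits only through A549. Of the 9 fitted probes of other hypoxia targets, 8 had lower values in H1299, and of the 5 of flux regulators, 4 did. Over all 17002 probes 8065 had lower values.

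**Figure D4:**
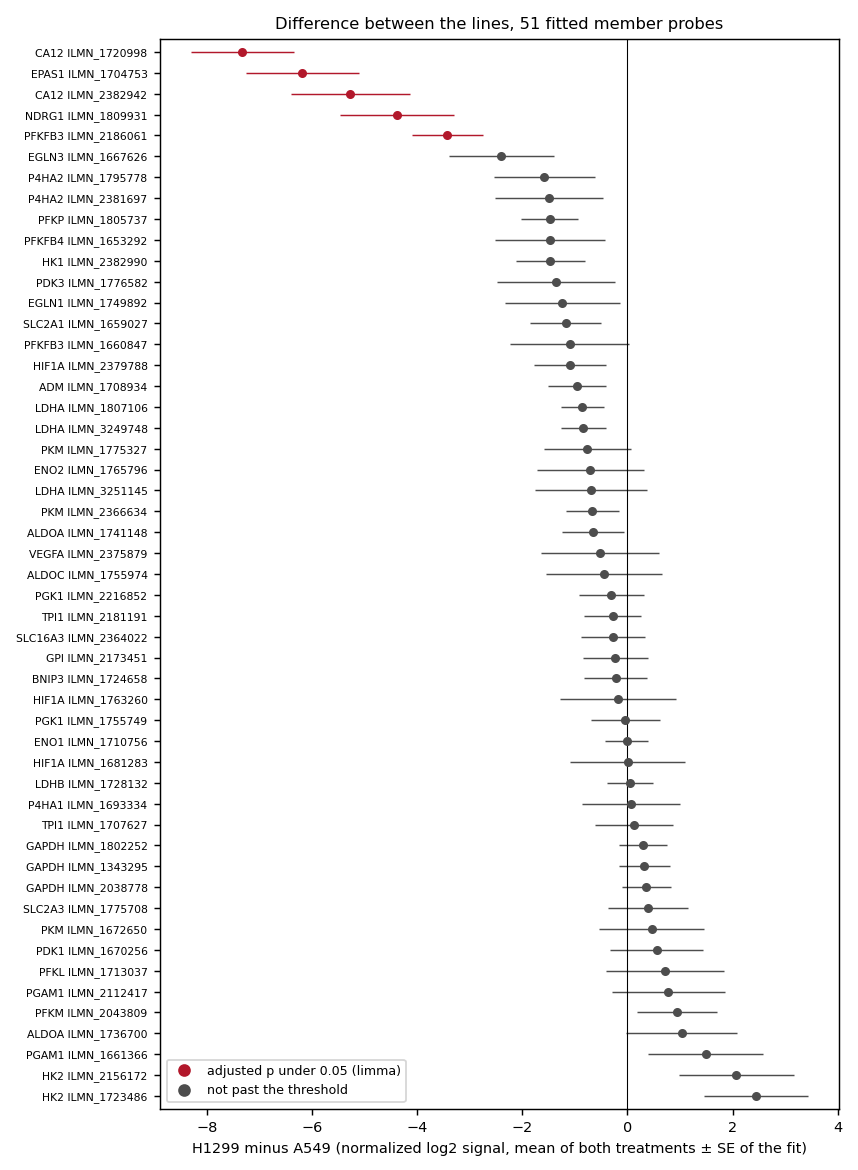
Difference between H1299 and A549 (horizontal axis, normalized log2 signal, mean over both treatments) for the 51 fitted member probes (rows, ordered by size), with bars for the SE of the limma fit and red for adjusted p under 0.05. The 5 red points, of CA12, EPAS1, NDRG1 and PFKFB3, lie between -7.33 and -3.43, and the glycolytic enzymes reach 2.45 for HK2; averages near 0, such as that of TPI1 ILMN_1707627, can hold opposing differences.

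Other genes of the pathways were read from 4 lists. For comparison, 13.6% of all detected probes were higher and 8.34% lower in the A549 knockdown, and 16.7% and 19.3% in the H1299 knockdown. Of other genes of sugar metabolism, 7 of 25 detected probes were higher and 2 lower in the A549 knockdown, and 3 of 21 were higher and 9 lower in the H1299 knockdown, medians 0.39 and -0.42. The brain glycogen phosphorylase PYGB read 8.29 in the A549 knockdown and 4.89 (undetected) in A549 vehicle, and 4.77 (undetected) in the H1299 knockdown and 8.84 in H1299 vehicle. PGAM4, the near copy of PGAM1, read on probe ILMN_1682953 8.82 in the A549 knockdown and 5.53 (undetected) in A549 vehicle, and 5.10 (undetected) in the H1299 knockdown and 10.34 in H1299 vehicle. PGAM4 had 4 detected probes, and ILMN_2102515 ran the other way, with -0.23 in A549 and 1.23 in H1299. Of genes of pyruvate and lactate handling, 3 of 16 probes were higher and 0 lower in A549, and 1 of 13 was higher and 2 lower in H1299. They included the MCT chaperone BSG, with changes of 1.04 and -1.44 in A549 and H1299, DLD with 0.46 and -1.27, PDPR with 1.38 and -0.48, and PC probe ILMN_2340347 with 1.95 in A549, undetected in H1299.

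Among other genes of oxygen sensing, 4 of 21 probes were higher and 1 lower in A549, and 2 of 16 were higher and 3 lower in H1299. These made 19.0% and 4.76% in A549, where all detected probes gave 13.6% and 8.34%. In H1299 they made 12.5% and 18.8%, against 16.7% and 19.3% of all detected probes. The coactivator EP300 gave 3.01 in A549 and -2.79 in H1299, with A549 vehicle and the H1299 knockdown undetected. A dimmer EGLN2 probe, of another prolyl hydroxylase, gave 2.35 and -2.29 and a brighter one -0.36 and 0.41, and HIF1AN, the asparaginyl hydroxylase that also restrains HIF1A, gave 1.44 and -2.30. Of other targets of the factors, 3 of 34 probes were higher and 3 lower in A549, and 12 of 35 were higher and 4 lower in H1299. These made 8.82% each way in A549, and 34.3% and 11.4% in H1299. The lysyl hydroxylase PLOD2 differed by 2.65 and -1.92 on probe ILMN_1799139 but by 0.35 and -1.02 on its brightest probe. The EGF family ligand TGFA differed by 1.65 and -0.60 on its dimmer probe, and the lysyl oxidase LOX, undetected in A549, by 3.20 in H1299. These were named for the size of their changes, and PLOD2 and TGFA do not stand for the direction of the list in H1299. No probe of the 4 lists differed the same way in both knockdowns, and none passed limma's test of the knockdown over both lines (0 with an unadjusted p under 0.05).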

How the data were processed

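Expression was measured on 4 bead arrays, 1 per group. The labels' extraction text describes genomic DNA, although they name total RNA as the molecule. One deposited table gives, per the file headers, the bead intensity of each of 47321 probes on each array beside its detection p-value, not normalized. A second table, which the authors made with lumi per the submitters' processing notes, holds values on a log2-like scale the steps behind which the labels do not state.

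The intensities were corrected by normexp with controls inferred from the detection p-values, offset by 16, quantile normalized and log2 transformed (neqc, limma 3.58.1, R 4.3.3). Within a line there is no test, and 2-fold was the threshold. For both lines together, a limma model with terms for line and knockdown used the 17002 probes that 2 or more arrays detected (p under 0.01). It had a mean-variance trend and left 1 residual degree of freedom, and its two-sided p-values were Benjamini-Hochberg adjusted, with calls at 0.05. Its prior degrees of freedom came out infinite, and the SEs therefore follow the trend over all probes. The 1 residual is the disagreement of the lines over the knockdown. The p-values thus rest on the trend of that disagreement over all probes and measure no spread between replicates. The labels do not name separate cultures, so the p-values hold only for these samples. With so few arrays precision is low.

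The members and lists were chosen with earlier results of these data known. Values were given for members past 2-fold in a line or with probes parting past 2-fold, for TET1, and for the largest changes of each list, except 1 gene that is not reported here. Alternatives were the deposited values, background correction, offset, scaling, the detection threshold, probe choice, limma settings and leaving out an array. Figures used matplotlib 3.10.9.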

Additional observations from a re-analysis of the deposited data

Results flagged for a closer look

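In 15 member probes the change passed 2-fold in both lines with opposite sign, on the normalized values as they stand. With undetected arrays held as below, NDRG1 in H1299 came to 0.96, short of 2-fold. With 1 array per group the difference between the lines was not tested. Each value is the A549 change minus the H1299 change in log2 units, with undetected arrays held at the lowest normalized value of their detected probes. Among glycolytic enzymes it was 10.49 for PGAM1 ILMN_2112417, 8.49 for TPI1 ILMN_1707627, 8.43 for PKM ILMN_1775327 and 3.70 for PKM ILMN_1672650. Smaller values were 3.60 for GAPDH ILMN_2038778, 2.87 for GAPDH ILMN_1343295, 3.12 for PGK1 ILMN_1755749, 2.62 for ALDOA ILMN_1741148 and 2.26 for GPI. Oxygen sensing genes gave 6.10 for HIF1A ILMN_1763260, 4.09 for HIF1A ILMN_1681283 and 4.52 for EGLN1. The difference ran the other way in PFKFB4 (-2.78), VEGFA (-2.94) and NDRG1 (-2.39). Over all probes detected in both lines, 11.1% and 4.04% fell in these opposing classes.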

How the results depend on the processing

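No called change of a member probe turned its sign under any of the alternatives run on the changes within a line. The 20 member probes past 2-fold in A549 were 13 among probes detected on all 4 arrays (37 tested) and 11 with the brightest probe of each gene (35 tested). The 25 in H1299 were 12 on the deposited values, all lower in the knockdown, and 12 with the brightest probe of each gene. The 15 opposing probes were 9 on the deposited values, 12 without background correction and 7 with the brightest probe. All of those 9 and 12 were higher in the A549 knockdown and lower in the H1299 knockdown, so VEGFA, NDRG1 and PFKFB4 dropped out. Median changes of the members moved to 0.56 in A549 and -0.15 in H1299 with arrays centred on their medians, to -0.0107 in A549 when centred on probes detected everywhere, to -0.16 in H1299 among probes detected on all 4 arrays, and to 0.0855 in A549 and -0.0765 in H1299 with the brightest probe.

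Over all probes the test between lines called 651, against 258 on the deposited values, 32 with median centring and 172 among probes detected on all 4 arrays. The 5 member probes lower in H1299 than in A549 were 3 on the deposited values and 0 with median centring, where the differences themselves lay between -7.33 and -3.46. Among probes detected on all 4 arrays they were 1, PFKFB3 ILMN_2186061, since CA12, EPAS1 and NDRG1 then leave the fit. Leaving out 1 array at a time, chosen after seeing the data, also dropped the term for knockdown and left a line with 1 array, assumed to vary like the others. Those fits gave 5 to 8 probes, the 8 without H1299 vehicle. No member passed for the knockdown under any of the 16 alternatives, 4 of which left out an array (0 to 0), and 1 and 2 had an unadjusted p under 0.05 without A549 vehicle and without the A549 knockdown. No paired analysis was possible because each group has 1 array and the labels give no replicate numbers; the block for line stands in its place. Probes near background, TET1 among them, are the least certain.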

Other observations

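Beyond the members, the lines differed in other genes of these pathways, which were chosen after their values were seen. All 3 probes of P4HTM, a transmembrane prolyl hydroxylase that can act on HIF alpha subunits, were lower in H1299, with differences between -4.51 and -3.92 (limma). EDN1, the vasoconstrictor endothelin 1, differed by -6.22 ± 1.09 (SE, limma adjusted p = 2.22e-06). HKDC1, a hexokinase domain protein, differed by -5.04 ± 1.13, PDK4, a pyruvate dehydrogenase kinase, by -4.16 ± 1.10, and ENO3, the muscle enolase, by -3.58 ± 0.98. Smaller differences were those of DDIT4, PYGL and PLOD2 probe ILMN_1771599. PLOD2 probes ILMN_2410924 and ILMN_1799139 did not pass (adjusted p = 0.0873 and 0.686, limma), and ENO3 probe ILMN_2365383, detected in the A549 knockdown alone, was not fitted. Over all fitted probes 2.55% were called lower in H1299 and 1.28% higher. These calls are given for the main normalization only, and median centring lost most calls over all probes. EDN1, HKDC1, PDK4 and P4HTM entered the fit only through the A549 arrays that detected them, and LOX only through the H1299 arrays. With no filter on detection EDN1 had an adjusted p of 4.21e-06 and LOX of 0.00506 (limma), and ENO3, DDIT4 and PYGL did not pass. The fit with no filter takes its SE from a trend that includes undetected probes, so it is no independent support. LOX was higher in H1299, by 3.17 ± 0.999 (limma adjusted p = 0.0418), a value to which the H1299 knockdown, at 9.44, gave more than H1299 vehicle, at 6.25.

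For 10 of 50 member probes in A549, none of them past 2-fold, the raw intensity and the normalized value changed in opposite directions, as for 35.1% of all detected probes in A549. In H1299 this held for 4 of 47 member probes and 5.58% of all probes.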
